A study of Mus musculus with 8 samples.

Results

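Proteoglycans, fibulins and matricellular proteins were examined in the comparison of astrocyte cultures from Spp1 knockout mice with astrocyte cultures from wild-type mice. The genes were chosen by name, with a pattern that covers fibulins, fibrillins and their partners, small leucine-rich proteoglycans, lecticans and link proteins, glypicans, syndecans, CCN proteins, thrombospondins, tenascins and related families. The pattern found 51 genes among the 3624 rows of the authors' deposited table. Cultures came from retinas and optic nerves at postnatal days 1 to 3 and grew in medium with fetal bovine serum. The knockout group held 4 samples of genotype Spp1-/-, strain B6.129S6(Cg)-Spp1tm1Blh/J, and the wild-type group held 4 samples of strain C57BL/6. No litter, sex or culture batch is given in the labels. The authors' adjusted p-values therefore rest on a spread between samples that could be technical. Strain background cannot be told apart from the deletion, and neither can sex, with Y-linked genes higher in the knockout. Spp1 encodes osteopontin, itself a secreted matrix phosphoprotein, and the Spp1-/- genotype is not limited to one cell type of the culture.

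Matrix around glia is a mesh of hyaluronan, large chondroitin sulphate proteoglycans of the lectican family, and link proteins that fasten the one to the other. Fibrillins, elastin, fibulins and latent TGF-beta binding proteins form microfibrils that hold growth factors in store. Matricellular proteins, among them osteopontin, the CCN proteins, thrombospondins, tenascins and periostin, add little to the structure and instead signal to cells through integrins and other receptors. Astrocytes are a known source of many of these proteins, including thrombospondins and glypicans that promote synapse formation.

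Most of the listed matrix genes were lower in the knockout. Of the 51 genes, 35 (68.6%) were lower and 16 (31.4%) higher, against a background of 45.1% lower and 54.9% higher over all 3624 genes of the authors' deposited table. The table holds only genes that the authors called, with adjusted p-values up to 0.0499 and log2 fold changes of 0.58 or more in size, so every gene found by the pattern counts as changed and only the direction and the size could vary. The median log2 fold change was -0.93 over the 51 genes and 0.66 over all genes of the table. The median absolute log2 fold change was 1.11 for the matrix genes and 1.14 for the table. On the log2 scale, 24 matrix genes were lower by 1 or more and 9 were higher by 1 or more, against 22.5% and 35.5% of all genes in the table. Abundant genes leaned the same way, since 21 of the 28 matrix genes whose mean normalized count reached 1000 were lower, against 47.6% of all 912 genes at that level.

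**Figure D1:**
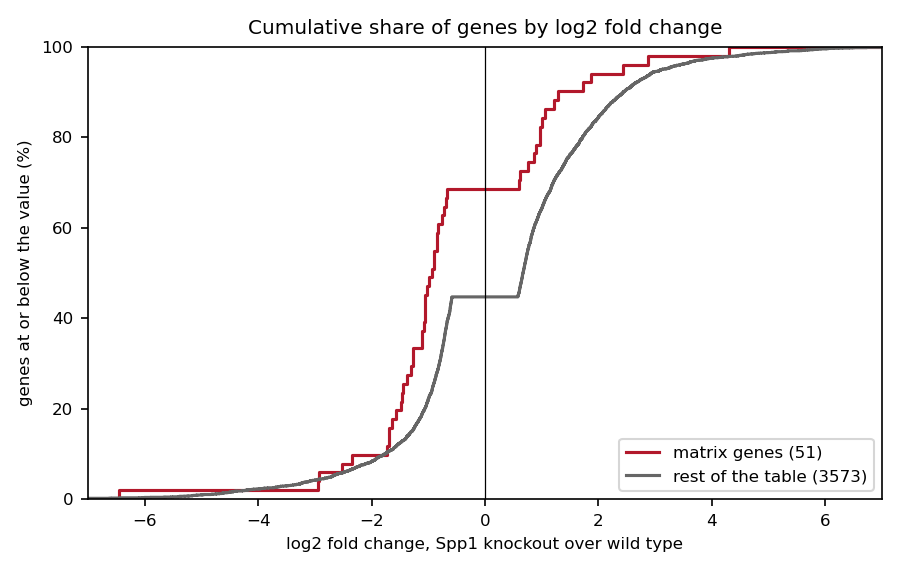
Cumulative share of genes (y axis, percent) at or below each log2 fold change of Spp1 knockout over wild type (x axis, shown from -7 to 7), for the 51 matrix genes (red) and the 3573 other genes of the deposited table (grey). The red curve reaches 68.6% below 0 and the grey curve 44.7%; the flat stretch around 0 is the range the authors left out.

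The name pattern matches 95 protein-coding genes of the RefSeq annotation, of which 51 (53.7%) are in the table, as are 16.1% of all 21900 protein-coding genes. The authors tested an estimated 16600 genes, of which 21.8% are in the table. The 44 others, which include Fn1, Sparc, Sparcl1, Vcan and Acan, could have failed a limit or the filter before testing, and neither change nor lack of change was read from them. Levels per group are not in the table. Implied means were therefore worked out from the authors' deposited mean normalized count and fold change for groups of equal size, and carry no error of their own. Summed over the 51 genes, implied means came to 140165 normalized counts in knockout cultures and 246585 in wild-type cultures, while the sums over the whole table were 4428495 in knockout cultures and 4080963 in wild-type cultures. Spp1 itself had implied mean normalized counts of 441 in knockout and 26271 in wild-type cultures (log2 fold change -5.90, standard error 0.11, adjusted p listed as 0 in the authors' deposited table); its negative value sets the reading of the fold change as knockout over wild type.

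**Figure D2:**
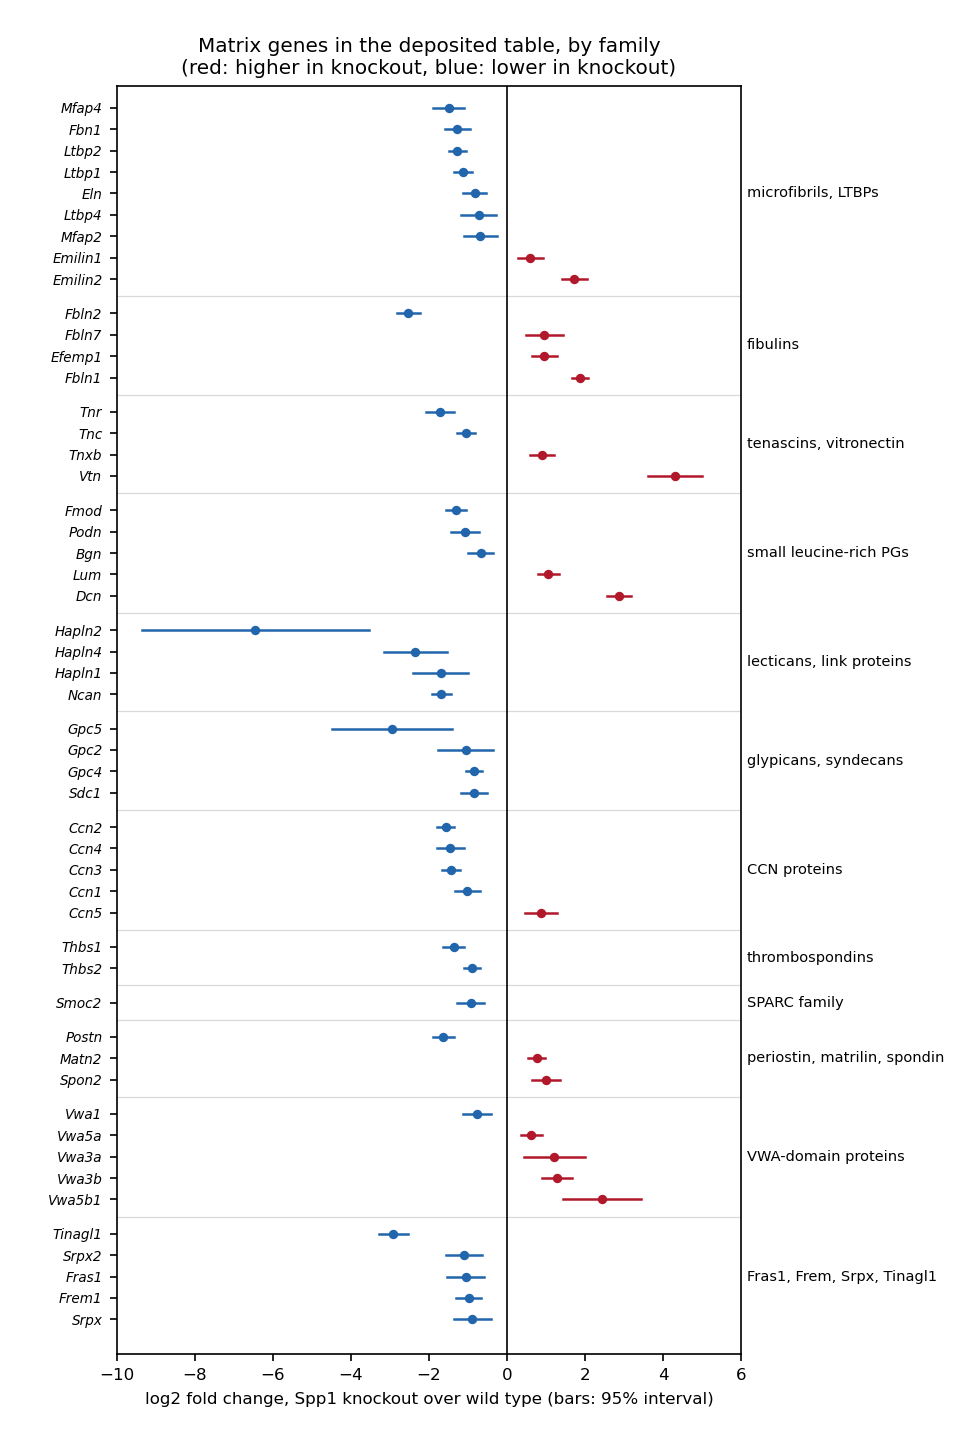
Log2 fold change of Spp1 knockout over wild type (x axis) for each of the 51 matrix genes (rows, grouped by family), with 95% intervals from the deposited standard errors as bars; red marks genes higher and blue genes lower in the knockout. Link proteins, glypicans, thrombospondins and the Fras1 and Frem group lie wholly on the lower side, while fibulins and small leucine-rich proteoglycans lie on both.

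Lecticans and their link proteins fell without exception among those listed, 4 of 4 with 7 annotated, and had the lowest median of the families with several listed genes, -2.03 on the log2 scale. Ncan encodes neurocan, a lectican of nervous tissue made by astrocytes and neurons. It had implied mean normalized counts of 9469 in knockout and 30457 in wild-type cultures (log2 fold change -1.69, standard error 0.12, adjusted p = 2.5e-40 in the authors' deposited table). Hapln4 encodes a brain link protein, and it had implied mean normalized counts of 41.8 in knockout and 213 in wild-type cultures (log2 fold change -2.35, standard error 0.41, adjusted p = 1.3e-07 in the authors' deposited table). Hapln1 encodes the link protein of cartilage and of perineuronal nets. It had implied mean normalized counts of 129 in knockout and 418 in wild-type cultures (log2 fold change -1.70, standard error 0.36, adjusted p = 2.8e-05 in the authors' deposited table). Hapln2, a link protein found at nodes of Ranvier, had implied mean normalized counts of 0.201 in knockout and 17.6 in wild-type cultures (log2 fold change -6.45, standard error 1.49, adjusted p = 1.2e-04 in the authors' deposited table). Its knockout level lies near 0 and its 95% interval runs from -9.36 to -3.53, so its size is uncertain. These link proteins sit beside lecticans in the genome (GRCm38): Hapln4 (chromosome 8, 70083529 to 70090862) and Ncan (70093085 to 70120863) are 2222 bases apart, and Hapln2 lies 18.4 kb from Bcan on chromosome 3. Bcan encodes brevican, a lectican that the name pattern does not cover, and it had implied mean normalized counts of 1661 in knockout and 2513 in wild-type cultures (log2 fold change -0.60, standard error 0.23, adjusted p = 0.031 in the authors' deposited table). Vcan, 43.5 kb from Hapln1, is not listed.

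Markers of myelinating cells and neurons, in which some of these genes are also known to be expressed, were lower as well. Of 16 oligodendrocyte lineage markers 14 were listed, 13 lower and 1 higher, with summed implied means of 8511 normalized counts in knockout and 27557 in wild-type cultures. Neuron markers were listed for 10 of 15 genes, all 10 lower, with sums of 8537 in knockout and 18911 in wild-type cultures. Thy1 alone (5253 in knockout, 12573 in wild type) made up most of both sums. Of 14 Schwann cell and neural crest markers 11 were listed, 10 lower and 1 higher, with sums of 1803 in knockout and 5880 in wild-type cultures. Mobp and Elavl4 had implied knockout means of 0.335 and 0.334, near 0. The part of these cells in the fall of the lecticans, link proteins and Tnr was not tested. In whole cultures, fewer cells of a type and less RNA per cell cannot be told apart.

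Tenascins moved in both directions. Tnr encodes tenascin-R, known from oligodendrocytes and some neurons and a partner of lecticans in perineuronal nets; it had implied mean normalized counts of 1024 in knockout and 3377 in wild-type cultures (log2 fold change -1.72, standard error 0.18, adjusted p = 6.3e-20 in the authors' deposited table). Tnc encodes tenascin-C, which immature and reactive astrocytes secrete. It had implied mean normalized counts of 13108 in knockout and 27134 in wild-type cultures (log2 fold change -1.05, standard error 0.12, adjusted p = 3.7e-17 in the authors' deposited table). Tnxb encodes tenascin-X of connective tissue, and it had implied mean normalized counts of 643 in knockout and 346 in wild-type cultures (log2 fold change 0.90, standard error 0.16, adjusted p = 3.7e-07 in the authors' deposited table). The intervals of Tnr (-2.07 to -1.37) and Tnc (-1.28 to -0.82) do not overlap. Vtn encodes vitronectin, an adhesive protein of blood plasma and of pericytes that binds integrins through the same short motif as osteopontin. It had the largest rise of the 51 genes and had implied mean normalized counts of 691 in knockout and 34.9 in wild-type cultures (log2 fold change 4.31, standard error 0.36, adjusted p = 2.0e-31 in the authors' deposited table), a 19.8-fold higher level with a 95% interval of 12.2 to 32.3. Vtn is also on the list of pericyte and smooth muscle markers, where the other 3 listed genes of 11, Acta2, Tagln and Notch3, were lower, with summed implied means of 47271 normalized counts in knockout and 88166 in wild-type cultures.

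CCN proteins are small secreted proteins built of conserved modules that bind integrins and heparan sulphate. Of 6 annotated genes 5 were listed, 4 of them lower. Ccn2, also known as connective tissue growth factor, had implied mean normalized counts of 6232 in knockout and 18556 in wild-type cultures (log2 fold change -1.57, standard error 0.11, adjusted p = 1.2e-44 in the authors' deposited table). Ccn1, or Cyr61, had implied mean normalized counts of 10538 in knockout and 21322 in wild-type cultures (log2 fold change -1.02, standard error 0.16, adjusted p = 6.0e-09 in the authors' deposited table). These paralogs are classical early targets of the YAP and TEAD transcription factors. Ccn4 had implied mean normalized counts of 538 in knockout and 1477 in wild-type cultures (log2 fold change -1.46, standard error 0.18, adjusted p = 3.3e-15 in the authors' deposited table). Ccn3 had implied mean normalized counts of 639 in knockout and 1738 in wild-type cultures (log2 fold change -1.44, standard error 0.12, adjusted p = 1.5e-32 in the authors' deposited table). The exception was Ccn5, the member that lacks the C-terminal cystine knot module: it had implied mean normalized counts of 4424 in knockout and 2419 in wild-type cultures (log2 fold change 0.87, standard error 0.21, adjusted p = 2.4e-04 in the authors' deposited table). The 4 genes with the full set of modules fell by 1.02 to 1.57, and the interval of Ccn5, 0.46 to 1.28, lies on the other side of 0. Of 20 other genes on a list of YAP and TEAD targets 4 were listed: Igfbp3 (-1.90, standard error 0.11), Lats2 (-0.71, 0.10) and Amotl2 (-0.59, 0.12) were lower and Nt5e (0.85, 0.17) was higher in log2 fold change in the authors' deposited table.

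Thrombospondins bind the receptors CD36 and CD47 and, in the case of thrombospondin-1, activate latent TGF-beta. Of 4 annotated genes 2 were listed and both were lower. Thbs1 had implied mean normalized counts of 9518 in knockout and 24663 in wild-type cultures (log2 fold change -1.37, standard error 0.14, adjusted p = 2.1e-21 in the authors' deposited table). Thbs2, which lies 261 kb from Smoc2 on chromosome 17, had implied mean normalized counts of 4553 in knockout and 8485 in wild-type cultures (log2 fold change -0.90, standard error 0.11, adjusted p = 1.1e-14 in the authors' deposited table). Smoc2 encodes a calcium-binding protein of the SPARC family and fell by 0.93 on the log2 scale (standard error 0.17, adjusted p = 8.4e-07) in the authors' deposited table. Postn encodes periostin, a matricellular protein of connective tissue that binds integrins and collagen, and it had implied mean normalized counts of 1126 in knockout and 3497 in wild-type cultures (log2 fold change -1.63, standard error 0.14, adjusted p = 3.8e-31 in the authors' deposited table).

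The 150 bases before annotated starts are shown for Ccn1 and Postn, which were lower, and for Vtn, which rose most. Each is among the 7 genes with TATAAA, the core of the TATA box, in a promoter window. Capitals mark TATAAA and CATTCC, a core of TEAD sites, on either strand. Vtn also has CATTCC in its window, outside the bases shown. Sequences are from RefSeq on GRCm38.p6, written 5′ to 3′ on the strand of the gene, and end at the base before the start; Postn has another annotated start.
Ccn1, chr3:145649986-145650135, minus strand: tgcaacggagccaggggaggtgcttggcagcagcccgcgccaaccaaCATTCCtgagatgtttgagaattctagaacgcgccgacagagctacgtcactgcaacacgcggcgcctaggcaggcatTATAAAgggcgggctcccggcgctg
Postn, chr3:54360957-54361106, plus strand: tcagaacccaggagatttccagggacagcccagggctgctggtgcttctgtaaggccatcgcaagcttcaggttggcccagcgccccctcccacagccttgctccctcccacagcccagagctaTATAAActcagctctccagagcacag
Vtn, chr11:78498970-78499119, plus strand: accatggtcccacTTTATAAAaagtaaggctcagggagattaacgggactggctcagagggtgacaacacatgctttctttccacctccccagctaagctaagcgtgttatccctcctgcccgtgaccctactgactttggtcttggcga
In Ccn1 and Postn the match to TATAAA lies 25 and 26 bases before the start, and in Vtn it lies 135 bases before it, where a match on the other strand overlaps it. Promoter windows from 250 bases before to 50 bases after the start were found for 35 of the 51 genes, 46 windows in all. TATAAA, on either strand, was in 17.4% of these windows and in 13.6% of all 32851 windows. CATTCC was in 19.6% of these windows and in 14.7% of all windows. TGACTCA, the AP-1 site, was in 4.35% of these windows and in 5.20% of all windows. The only form of the CArG box of serum response factor that was searched was in 0 of the 46 windows and in 0.0639% of all windows. Other forms of this box were not searched, so its absence was not read from these windows. A match is a description of letters and not a bound site.

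Small leucine-rich proteoglycans moved in opposite directions within the family. They bind collagen fibrils and growth factors and most carry glycosaminoglycan chains. Dcn encodes decorin, the leading proteoglycan of fibroblasts and meninges. It had implied mean normalized counts of 15920 in knockout and 2177 in wild-type cultures (log2 fold change 2.87, standard error 0.16, adjusted p = 1.3e-70 in the authors' deposited table), a 7.31-fold higher level with a 95% interval of 5.90 to 9.07. Lum encodes lumican, and its log2 fold change was 1.06 (standard error 0.14, adjusted p = 2.2e-13) in the authors' deposited table. These genes are neighbours on chromosome 10 of GRCm38, Dcn at 97479500 to 97518163 and Lum at 97565501 to 97572703, 47.3 kb apart. Epyc, which encodes epiphycan and lies further along the same cluster, was named after its value was seen, and it had implied mean normalized counts of 576 in knockout and 132 in wild-type cultures (log2 fold change 2.12, standard error 0.15, adjusted p = 3.5e-45 in the authors' deposited table). By contrast Fmod, which encodes fibromodulin, had implied mean normalized counts of 4695 in knockout and 11561 in wild-type cultures (log2 fold change -1.30, standard error 0.13, adjusted p = 8.9e-22 in the authors' deposited table). Bgn, which encodes biglycan, the nearest relative of decorin, had implied mean normalized counts of 15291 in knockout and 24384 in wild-type cultures (log2 fold change -0.67, standard error 0.17, adjusted p = 3.5e-04 in the authors' deposited table). Podn, or podocan, fell by 1.07 on the log2 scale (standard error 0.18, adjusted p = 8.0e-08) in the authors' deposited table.

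Divided by exon length, Dcn was the highest of these genes in the knockout. It had an implied 8210 normalized counts per kb of exon in knockout cultures and 1123 in wild-type cultures and ranked 12 of 51 in wild type. Bgn had 6321 per kb in knockout and 10080 in wild-type cultures. Ccn1, the highest per kb in wild type, had 5220 in knockout and 10561 in wild-type cultures.

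**Figure D3:**
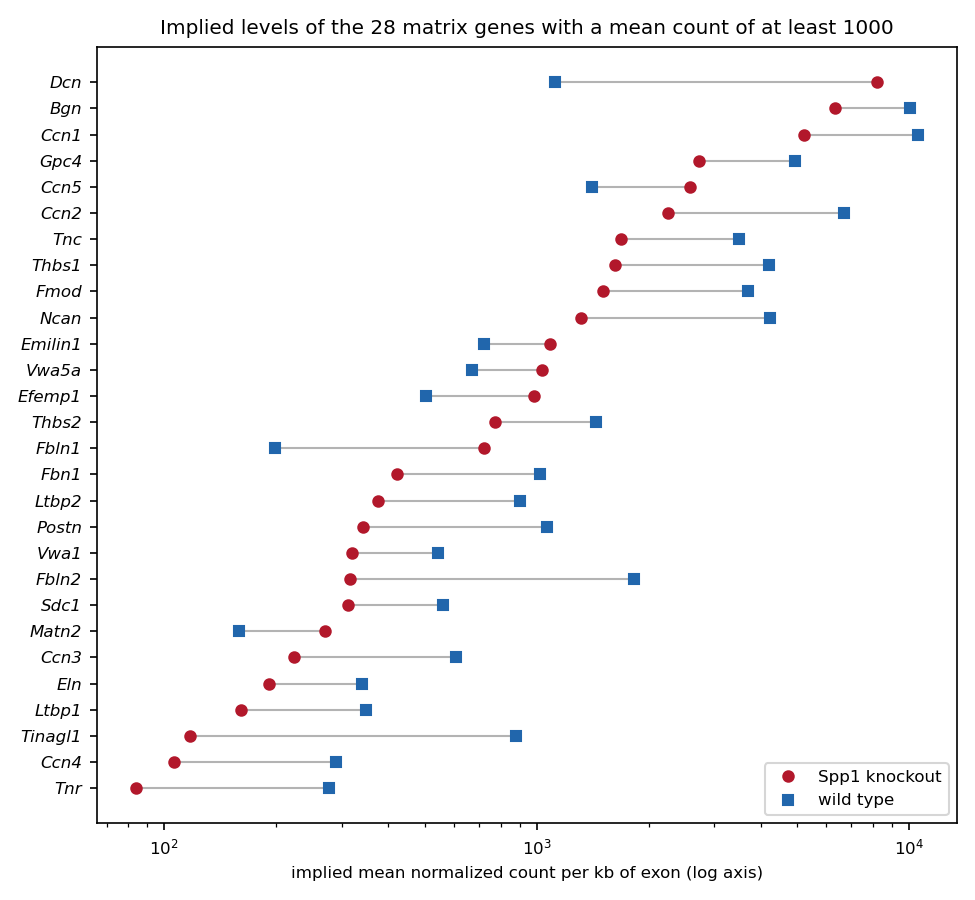
Implied mean normalized count per kb of exon (x axis, log scale) in Spp1 knockout (red circles) and wild-type cultures (blue squares) for the 28 matrix genes whose mean normalized count reached 1000, ordered by the knockout level. Dcn stands at 8210 in the knockout and 1123 in wild type, while Ccn1, Ccn2, Ncan, Thbs1, Fmod and Tnc lie to the left of their wild-type level.

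Fibulins, which bridge elastic fibres and basement membranes, were mostly higher: 3 of 4 listed genes rose. Fbln2 was the exception and had implied mean normalized counts of 1510 in knockout and 8714 in wild-type cultures (log2 fold change -2.53, standard error 0.16, adjusted p = 1.2e-56 in the authors' deposited table). Fbln1 had implied mean normalized counts of 2964 in knockout and 814 in wild-type cultures (log2 fold change 1.86, standard error 0.11, adjusted p = 3.8e-67 in the authors' deposited table). Efemp1, which encodes fibulin-3, had implied mean normalized counts of 2005 in knockout and 1028 in wild-type cultures (log2 fold change 0.96, standard error 0.17, adjusted p = 1.1e-07 in the authors' deposited table). Fbln7 rose by 0.96 on the log2 scale (standard error 0.24, adjusted p = 5.5e-04) in the authors' deposited table. Per kb of exon, the implied level of Fbln2 was 316 normalized counts in knockout and 1821 in wild-type cultures, and that of Fbln1 was 723 in knockout and 198 in wild-type cultures. Fbln1 thus stood above Fbln2 in the knockout and below it in wild type.

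Markers of fibroblasts and meninges, cells known to express Dcn, Lum and Fbln1, leaned higher beside them. Fbln2 (log2 fold change -2.53), Postn (-1.63), Fmod (-1.30), Fbn1 (-1.27) and Bgn (-0.67), also matrix genes of connective tissue, were lower in the authors' deposited table. Of 24 fibroblast and meningeal markers 17 were listed, 12 higher and 5 lower. Their summed implied means were 105367 normalized counts in knockout and 54233 in wild-type cultures. Col3a1 (56076 in knockout, 31255 in wild type) and Igf2 (24132 in knockout, 2314 in wild type) made up most of both sums. Cldn11 (log2 fold change 2.93, standard error 0.15), Igf2 (3.38, 0.18) and Aldh1a2 (1.76, 0.14) were among the higher ones. Among the lower ones were Col8a1 (-0.77, 0.08), Twist1 (-1.22, 0.21) and Twist2 (-1.70, 0.37), in the authors' deposited table. Col1a1 and Col1a2 are not listed. Microglia and macrophage markers were higher for 18 of 20 genes and lower for 0, with sums of 182501 in knockout and 36283 in wild-type cultures. Endothelial markers were listed for 5 of 12 genes, 2 higher and 3 lower, with sums of 4116 in knockout and 2892 in wild-type cultures. The part of these cells in the rise of Dcn, Lum, the higher fibulins and Vtn was not tested.

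Genes of microfibrils and elastic fibres were lower in 7 of 9 listed cases, of 17 annotated. Fbn1 encodes fibrillin-1, the backbone of the microfibril. It had implied mean normalized counts of 5065 in knockout and 12253 in wild-type cultures (log2 fold change -1.27, standard error 0.17, adjusted p = 6.2e-13 in the authors' deposited table). Eln encodes elastin, and it had implied mean normalized counts of 737 in knockout and 1309 in wild-type cultures (log2 fold change -0.83, standard error 0.15, adjusted p = 5.6e-07 in the authors' deposited table). Ltbp1 encodes a protein that anchors latent TGF-beta to microfibrils, and it had implied mean normalized counts of 1108 in knockout and 2403 in wild-type cultures (log2 fold change -1.12, standard error 0.12, adjusted p = 9.1e-20 in the authors' deposited table). Ltbp2, a relative that binds fibrillin but not latent TGF-beta, had implied mean normalized counts of 2547 in knockout and 6124 in wild-type cultures (log2 fold change -1.27, standard error 0.11, adjusted p = 1.8e-29 in the authors' deposited table). Ltbp4 (-0.73, standard error 0.22), Mfap2 (-0.68, 0.22) and Mfap4 (-1.49, 0.20), which encode a TGF-beta anchor and microfibril-associated proteins, had lower log2 fold changes too in the authors' deposited table. The higher genes were the elastin microfibril interfacers. Emilin1 had implied mean normalized counts of 4185 in knockout and 2775 in wild-type cultures (log2 fold change 0.59, standard error 0.17, adjusted p = 0.0022 in the authors' deposited table). Emilin2 had a log2 fold change of 1.73 (standard error 0.17, adjusted p = 6.9e-24) in the authors' deposited table.

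Assembly factors of the same fibres also leaned lower. Of 26 genes for elastic fibre assembly and TGF-beta activation 12 were listed, 10 lower and 2 higher. Their median log2 fold change was -1.03. The lysyl oxidases, which cross-link elastin and collagen, were represented by Lox (-0.70, standard error 0.19), Loxl1 (-1.58, 0.18), Loxl3 (-1.03, 0.11) and Loxl4 (-1.19, 0.42), all 4 lower in log2 fold change in the authors' deposited table. Lrrc32 (-1.03, 0.11), which encodes a carrier of latent TGF-beta on the cell surface, was lower, and Nrros (2.12, 0.28), which encodes the carrier used by microglia and macrophages, was higher, in the authors' deposited table. The other higher gene of this list was Thsd4 (2.08, 0.41). Nrros rose beside the macrophage markers, and their part in it was not tested.

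Glypicans and syndecans, the heparan sulphate proteoglycans of the cell surface, were lower in 4 of 4 listed cases, of 10 annotated. Gpc4, a glypican through which astrocytes promote excitatory synapses, had implied mean normalized counts of 7233 in knockout and 13081 in wild-type cultures (log2 fold change -0.85, standard error 0.11, adjusted p = 2.7e-14 in the authors' deposited table). Sdc1, or syndecan-1, had implied mean normalized counts of 983 in knockout and 1770 in wild-type cultures (log2 fold change -0.85, standard error 0.17, adjusted p = 1.1e-05 in the authors' deposited table). Gpc5 had implied mean normalized counts of 5.27 in knockout and 40.5 in wild-type cultures (log2 fold change -2.94, standard error 0.78, adjusted p = 0.0011 in the authors' deposited table). Gpc2, a glypican of developing neurons, had a log2 fold change of -1.05 (standard error 0.36) and the highest adjusted p of the 51 genes, 0.015, in the authors' deposited table. Gpc4 and Bgn lie on the X chromosome, with Srpx and Srpx2, and all 4 were lower, against 51.7% of the 143 genes of the X chromosome in the table. Y-linked genes were higher beside them: Kdm5d had implied mean normalized counts of 905 in knockout and 15.0 in wild-type cultures (log2 fold change 5.91, standard error 0.25, adjusted p = 1.1e-123 in the authors' deposited table). Ddx3y had implied mean normalized counts of 1605 in knockout and 0.164 in wild-type cultures (log2 fold change 13.26, standard error 1.03). Eif2s3y and Uty were higher as well. Xist, of the X chromosome, is not listed, so its level could not be checked. Sex is not labelled and cannot be told apart from genotype.

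Fras1 and Frem, sushi-repeat and tubulointerstitial nephritis antigen-like genes were lower in 5 of 5 listed cases, of 7 annotated. Tinagl1, a basement membrane glycoprotein that binds integrins, had one of the largest falls and had implied mean normalized counts of 253 in knockout and 1915 in wild-type cultures (log2 fold change -2.92, standard error 0.19, adjusted p = 9.8e-51 in the authors' deposited table). Fras1 (-1.06, standard error 0.24) and Frem1 (-0.98, 0.16), partners in a complex that fastens epithelium to the tissue below it, had lower log2 fold changes in the authors' deposited table. The sushi-repeat genes Srpx (-0.89, 0.24) and Srpx2 (-1.11, 0.23) were lower as well in the authors' deposited table. Vwa1, a von Willebrand A-domain protein of basement membranes, was the 1 lower gene of 5 listed with that domain and had implied mean normalized counts of 1159 in knockout and 1967 in wild-type cultures (log2 fold change -0.76, standard error 0.18, adjusted p = 1.9e-04 in the authors' deposited table). Matrilins and spondins were listed with 1 gene each, both higher. Matn2 encodes matrilin-2, a filament-forming adaptor, and it had implied mean normalized counts of 1644 in knockout and 971 in wild-type cultures (log2 fold change 0.76, standard error 0.11, adjusted p = 3.5e-10 in the authors' deposited table). Spon2, a spondin known as mindin, rose by 1.00 on the log2 scale (standard error 0.19, adjusted p = 1.3e-06) in the authors' deposited table.

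The name pattern also caught 4 genes with a von Willebrand A domain whose products are not known as matrix proteins, and all 4 were higher. Vwa5a had implied mean normalized counts of 4303 in knockout and 2793 in wild-type cultures (log2 fold change 0.62, standard error 0.14, adjusted p = 4.0e-05 in the authors' deposited table). Vwa5b1 had implied mean normalized counts of 180.1 in knockout and 33.3 in wild-type cultures (log2 fold change 2.43, standard error 0.51, adjusted p = 2.0e-05 in the authors' deposited table). Vwa3a (1.21, standard error 0.39) and Vwa3b (1.29, 0.20) had positive log2 fold changes in the authors' deposited table. Without them 35 genes were lower and 12 higher, and the median log2 fold change was -1.02.

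Receptors and partners outside the pattern were listed in both directions. Of 27 integrins and other matrix receptors 8 were listed, 5 higher and 3 lower. Their median log2 fold change was 0.98. Cd36 (2.46, standard error 0.16), a thrombospondin receptor and scavenger receptor of macrophages, and the integrin gene Itgb4 (2.44, 0.27) were higher in log2 fold change. Itga5 (-0.75, 0.12) and Itga7 (-1.24, 0.16), which encode the fibronectin receptor chain and a laminin receptor chain, were lower in the authors' deposited table. The other higher genes and the other lower gene of this list encode integrin chains too. Of 34 genes for hyaluronan, lectican partners and lectican proteases 16 were listed, 8 higher and 8 lower. Itih2 (2.66, 0.13), Itih5 (1.68, 0.14) and Stab1 (1.67, 0.14) were higher, the first 2 encoding heavy chains that bind hyaluronan and Stab1 a scavenger receptor of macrophages, and Cspg4 (-2.33, 0.14), the NG2 proteoglycan, was lower in the authors' deposited table. Astrocyte markers, the labelled cell type, were listed for 8 of 15 genes, 5 higher and 3 lower. Fabp7 (-1.23, standard error 0.10), S100b (-1.82, 0.15) and Pax2 (-0.98, 0.26) were the lower ones, and Gjb6 (4.28, 0.37) and Aqp4 (1.15, 0.16) were among the higher ones in log2 fold change, in the authors' deposited table. Gfap had implied mean normalized counts of 91923 in knockout and 58314 in wild-type cultures (log2 fold change 0.66, standard error 0.16, adjusted p = 3.9e-04 in the authors' deposited table), while Aldh1l1, Slc1a2 and Gja1 are not listed, so their levels could not be checked.

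**Figure D4:**
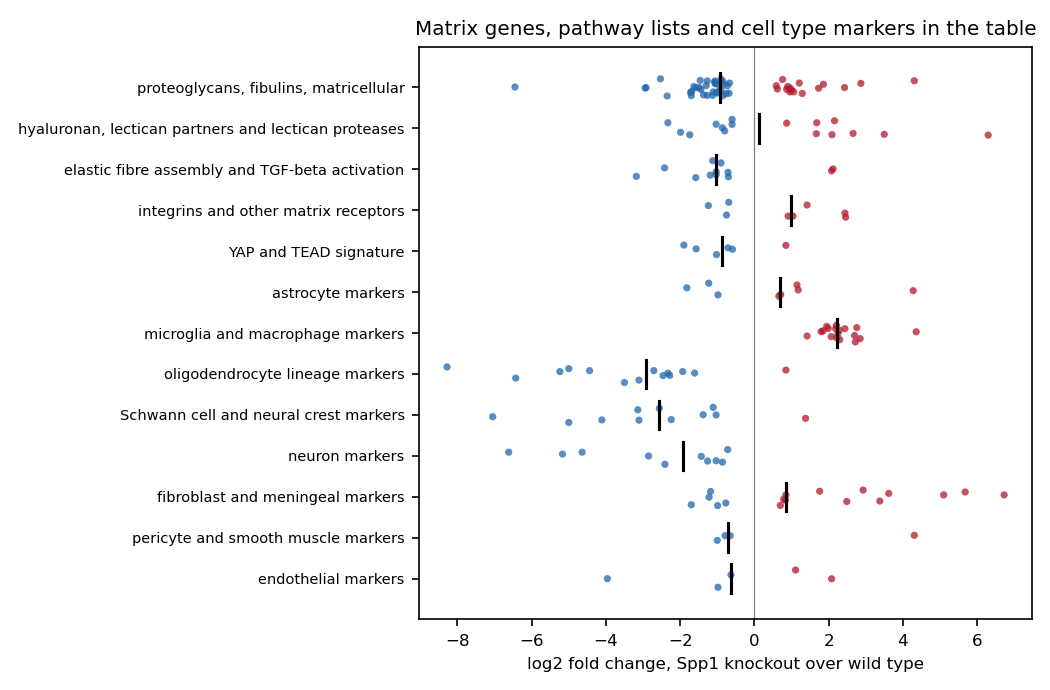
Log2 fold change of Spp1 knockout over wild type (x axis) for the listed genes of the matrix set, of 4 pathway lists and of 8 lists of cell type markers (rows); each point is a gene, red higher and blue lower in the knockout, and black lines are medians. The matrix genes and the elastic fibre list centre below 0, at -0.93 and -1.03, and the microglia and macrophage markers at 2.23.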

How the data were processed

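RNA was sequenced from 4 knockout and 4 wild-type samples. Tools named in the submitters' processing notes, without roles, are CASAVA 1.8, STAR 2.7 and DESeq2 1.30.1, with build GRCm38; annotation, counting and filters were not given in the sources. Per the file headers, the authors deposited 1 table of the comparison, with mean normalized counts (a signal), log2 fold changes, their standard errors, Wald statistics (a score), p-values and adjusted p-values. It has 0 columns of per-sample values, so depth per sample is unknown, no test across samples could be run and fold changes are used as deposited. The number of genes tested was estimated from adjusted p-values over raw ones for 20 genes.

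Intervals at 95% take the deposited standard error and a normal distribution (Python 3.11.15, pandas 2.3.3, scipy 1.17.1). Levels per kb use the union of exons in GENCODE M21. The estimate of the number of genes tested was checked on simulated data. For the implied means the check covered only the arithmetic, with exact means and fold changes and no count noise. It says nothing on their accuracy in these data. The genes and lists were chosen with earlier results of these data known. Every gene matching the pattern was named, with implied means where the mean count reached 1000 or the log2 fold change 2 in size. Of each other list at most 4 genes with the smallest adjusted p were eligible. Bcan, Epyc, Dmp1, Nrros, Thsd4, Amotl2, Nt5e, Mobp, Twist1, Twist2, Kdm5d, Ddx3y, Eif2s3y, Uty, Lox, Loxl4, Pax2 and Gfap were named after their values were seen. So were Col3a1 and Col8a1. A planned comparison of protein sequences was not run.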

Additional observations from a re-analysis of the deposited data

How the results depend on the processing

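The median stayed below 0 in the 12 alternatives run for it, and more matrix genes were lower than higher in the 10 run for the counts. Among changes of 1 or more in size on the log2 scale, 9 matrix genes were higher and the median log2 fold change was -1.27; with the 95% interval wholly beyond the deposited fold limit, 9 were higher and the median was -1.11. A minimum mean normalized count of 1000, chosen after seeing the data, left 7 higher and 21 lower. Subtracting the median over all genes of the table, a shift of 0.66, gave a median of -1.59. Each of the first 3 leaves out genes by construction. The subtraction could only lower the median. The Wald statistic has the sign of the fold change, so with 35 of 51 genes lower its median was bound to be below 0. With Bonferroni adjustment 26 were lower and 11 higher. No paired analysis was possible because the deposited table holds no values per sample; for the same reason no replicate was left out in turn, and depth, outlying samples and the pairing of replicate numbers could not be examined. The precision of each value is that of its deposited standard error, 0.11 to 1.49 over the 51 genes, and Hapln2 and Gpc5 have a mean normalized count under 100.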

Other observations

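Among genes next to each other in the genome, 3 pairs of matrix genes lie within 1 Mb of each other. Each pair moved one way: Hapln4 with Ncan down, Smoc2 with Thbs2 down, and Dcn with Lum up, in the authors' deposited table. Over all 51 genes 35 were lower and 16 higher, and the part of position was not tested. The chromosome that carries Spp1, chromosome 5, holds 5 of the 51 genes. Fras1, the nearest, lies 7.65 Mb from Spp1, and Eln, Gpc2, Spon2 and Emilin1 lie 30.3 to 73.5 Mb away. Of these 5 genes 3 were lower and 2 higher, and without them 32 genes were lower and 14 higher. Sparcl1, a relative of Sparc that lies 321 kb from Spp1, is not in the table. Dmp1, between Sparcl1 and Spp1, had implied mean normalized counts of 15.6 in knockout and 88.1 in wild-type cultures (log2 fold change -2.50, standard error 0.38, adjusted p = 1.4e-09 in the authors' deposited table). The part of sequence from the 129S6 background near Spp1 was not tested.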
